A study of Mus musculus with 6 samples.

Results

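The genes of respiratory complex I were compared between soleus muscle of StarD7 mKO mice and of WT mice. They were taken by gene name from a list of 48 members, 35 nuclear-encoded subunits and 13 assembly factors, and all 48 were found among the 43074 gene names of each table. The mKO group held 3 libraries from soleus of mice labelled StarD7 mKO, taken here as a muscle knockout of Stard7, whose product carries phosphatidylcholine to mitochondria. The WT group held 3 soleus libraries, called control in the series text. Soleus is a postural hindlimb muscle that mixes slow and fast fibres. The promoter or Cre line behind the knockout, the exons removed, strain, age and sex are not given in the sources used here. The series text gave 3 mice per group, but no label links a library to its animal. The p-values below thus speak of the spread among these libraries. RNA was selected by its poly(A) tail, and levels were given as TPM, read numbers corrected for gene length and brought to a common sum within each library. The series was a comparison of mKO with control mice, and the comparison below asked which complex I transcripts differed between them.

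Complex I oxidises NADH from the tricarboxylic acid cycle, passes the electrons through iron-sulfur clusters to ubiquinone and pumps protons across the inner mitochondrial membrane. It is built from modules. The N module binds NADH, the Q module reduces ubiquinone, and the ND1, ND2, ND4 and ND5 modules form the membrane arm around subunits that the mitochondrial genome encodes. Assembly factors hold, modify or load cofactors into the parts and are not in the finished enzyme. In oxidative muscle such as soleus the complex is a main entry point of electrons into the respiratory chain.

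RefSeq promoter windows (GRCm38.p6, 250 bases before to 50 after the start) matched 43 of the 48 members. The sequences below are the bases from -250 to -21 relative to the RefSeq start and hold no annotated exon. Ndufa3 and Nubpl are shown because they had a large negative and the largest positive log2 difference among the members. Ndufs5 and Ndufaf4 are shown as a subunit and an assembly factor whose log2 differences lay near 0 and whose windows hold an NRF1 motif. These 2 were picked by value and motif together. Subunits further from 0, such as Ndufa6 (-0.13) and Ndufb10 (-0.12), hold the motif too. Capitals mark matches to the NRF1 motif GCGCANGCG or to the ERR motif AAGGTCA, read on either strand. In Ndufaf4 matches on both strands overlap. The window of Ndufa3 lies at chr7:3617123-3617352 (plus strand), Nubpl at chr12:52097496-52097725 (plus strand), Ndufs5 at chr4:123718207-123718436 (minus strand) and Ndufaf4 at chr4:24897833-24898062 (plus strand).
Ndufa3: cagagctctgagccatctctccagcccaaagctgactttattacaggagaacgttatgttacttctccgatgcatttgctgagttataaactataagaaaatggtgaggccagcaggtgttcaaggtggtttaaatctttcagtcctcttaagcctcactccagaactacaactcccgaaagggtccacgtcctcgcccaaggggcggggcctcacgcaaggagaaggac
Nubpl: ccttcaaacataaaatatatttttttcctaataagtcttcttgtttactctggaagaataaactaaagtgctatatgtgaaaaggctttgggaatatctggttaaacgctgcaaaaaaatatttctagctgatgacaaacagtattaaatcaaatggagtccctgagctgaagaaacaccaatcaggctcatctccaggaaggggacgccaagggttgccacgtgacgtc
Ndufs5: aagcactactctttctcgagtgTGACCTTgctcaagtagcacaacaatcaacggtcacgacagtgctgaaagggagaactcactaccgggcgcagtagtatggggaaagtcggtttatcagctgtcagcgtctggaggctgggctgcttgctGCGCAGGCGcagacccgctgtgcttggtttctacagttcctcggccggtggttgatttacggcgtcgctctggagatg
Ndufaf4: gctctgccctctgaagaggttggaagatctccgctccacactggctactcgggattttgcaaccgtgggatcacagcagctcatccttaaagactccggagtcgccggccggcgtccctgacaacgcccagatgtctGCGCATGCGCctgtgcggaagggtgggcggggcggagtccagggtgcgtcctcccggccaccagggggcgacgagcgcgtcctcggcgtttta
The windows shown of Ndufa3 and Nubpl hold no match to these motifs, to the ETS motif CCGGAAG or to the YY1 motif AAGATGGCG. Over the full window of 300 bases, the NRF1 motif was found in 8 of 32 subunits and 2 of 11 assembly factors with an entry, against 7.03% of 27025 genes. The YY1 motif was found in 5 of the 32 subunits and 1 of the 11 assembly factors, against 1.64% of all genes. The ETS motif was found in 4 and 3 of them, against 9.93%, and the ERR motif in 3 and 0, against 5.38%. The 8 subunits with an NRF1 motif had a median log2 difference (mKO minus WT) of -0.09, ranging between -0.13 and -0.02, and the 24 subunits without it had a median of -0.13. Subunit medians with and without the motif were -0.11 and -0.12 for ETS, -0.14 and -0.12 for YY1 and -0.06 and -0.12 for ERR. These are descriptions of letters in a window, and binding was not measured.

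The libraries held 42928774 to 51287999 reads, as recovered from the TPM values, and each member had between 199 and 27825 reads in a library. Stard7 itself stood at 21.8, 21.3 and 34.6 TPM in mKO and at 87.5, 95.4 and 95.0 TPM in WT, a log2 difference of -1.83 (SE 0.16, limma adjusted p = 0.00585). Genes of the mitochondrial genome, named mt-, took 48.9, 46.8 and 48.2% of the TPM sum in mKO and 43.5, 42.1 and 45.1% in WT. The sum left for all other genes was 52.0 ± 1.05% in mKO and 56.4 ± 1.49% in WT (SD, n = 3 each), a mean log2 difference of -0.12. The fit and the values of the gene groups are therefore also given with mt- genes left out and the rest rescaled to the same sum. Fibre markers moved with genotype. All 10 fast fibre markers were lower in every mKO library than in any WT library, against 10.3% of all genes, and their sum was 24344 to 31854 TPM in mKO and 41294 to 47350 TPM in WT. Of these, 4 passed the test, against 0.423% of all genes tested: Mybpc2 (log2 difference -6.73), Pvalb (-5.87), Actn3 (-4.08) and Tnnc2 (-0.49), and with mt- genes left out 3 did, against 0.148% of all genes, as Tnnc2 no longer passed (adjusted p = 0.136). Of 10 slow fibre markers, Pln, the phospholamban gene, rose (log2 difference 1.52, adjusted p = 0.000742), against 0.0976% of all genes, and their sum was 19250 to 27442 TPM in mKO and 17860 to 23182 TPM in WT. mKO replicate 3 had the highest Stard7 level, the highest fast fibre sum and the lowest slow fibre sum of its group. Without it the median log2 difference described below was -0.12 for the subunits and -0.01 for the assembly factors. None of the tested markers of macrophages, fibroblasts, endothelium, adipocytes, satellite cells, red blood cells or Schwann cells passed the test, no listed marker was at 0 in any library, and the summed TPM of each list overlapped between the groups, except for endothelium (186.8 to 188.7 in mKO, 193.1 to 199.2 in WT). With mt- genes left out the endothelium sums overlapped too (351.5 to 369.2 in mKO, 336.5 to 352.3 in WT). Of 8 handling stress genes tested, 0 were called, while 4 had an unadjusted p under 0.05, against 10.7% of all genes, and 5 did with mt- genes left out, against 19.3%. Fos (log2 difference 0.54, adjusted p = 0.28), Egr1 (0.72, adjusted p = 0.222) and Ier2 (0.43, adjusted p = 0.224) were higher in every mKO library, and Jun (-0.51, adjusted p = 0.225) was lower. The part of fibre type, cell makeup or handling in the complex I values was not tested, and in bulk tissue fewer cells of a type and less RNA per cell cannot be told apart.

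No complex I gene passed the test. In TPM as deposited the 35 nuclear subunits lay slightly lower in mKO than in WT, and the assembly factors were divided. With mt- genes left out, 20 of the 35 subunits and 1 of the 13 assembly factors were below 0, against 22.8% of all genes. All 48 members were measured well enough to be tested, and 0 of 48 were called at an adjusted p under 0.05 (limma-trend), against 0.52% of the 12301 genes tested. After mt- genes were left out it was again 0 of 48, against 0.304% of 13502 genes. The lowest adjusted p of a member was 0.0917. At an unadjusted p under 0.05 there were 18 members, 17 subunits and 1 assembly factor, against 10.7% of all genes, and after mt- genes were left out there were 5, 2 subunits and 3 assembly factors, against 19.3%. On reads recovered from the TPM, limma-voom also called 0 members, against 0.666% of all genes, and had 6 subunits and 2 assembly factors at an unadjusted p under 0.05, against 10.8% of all genes.

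As deposited, all 35 subunits had a log2 difference below 0, with a median of -0.12, against 55.1% of all genes, whose median was -0.01. In 21 of the 35 every mKO library was lower than every WT library, against 10.3% of all genes. Among the 1992 genes within the subunits' range of levels (34.7 to 808 TPM), 72.4% were below 0 with a median of -0.06, and 23.7% had mKO libraries all lower. The summed TPM of the subunits was 8288, 8272 and 8175 in mKO, against 8836, 9180 and 8991 in WT. The mKO sum was 91.6% of the WT sum, and the groups did not overlap. Leaving out mt- genes brought the mKO sum to 99.4% of the WT sum, with 20 of the 35 subunits below 0 and a median log2 difference of -0.00. In 2 subunits, Ndufa2 and Ndufb11, all mKO libraries were still lower, against 2.71% of all genes, and in 2, Ndufb3 and Ndufb4, all were higher, against 23.9%. In that scaling the median of all 13502 genes tested was 0.09 and 22.8% of them were below 0. Within the subunits' range of levels 27.0% of 2000 genes were below 0, with a median of 0.06. Of these genes, 4.95% had mKO libraries all lower and 26.1% had them all higher.

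**Figure D1:**
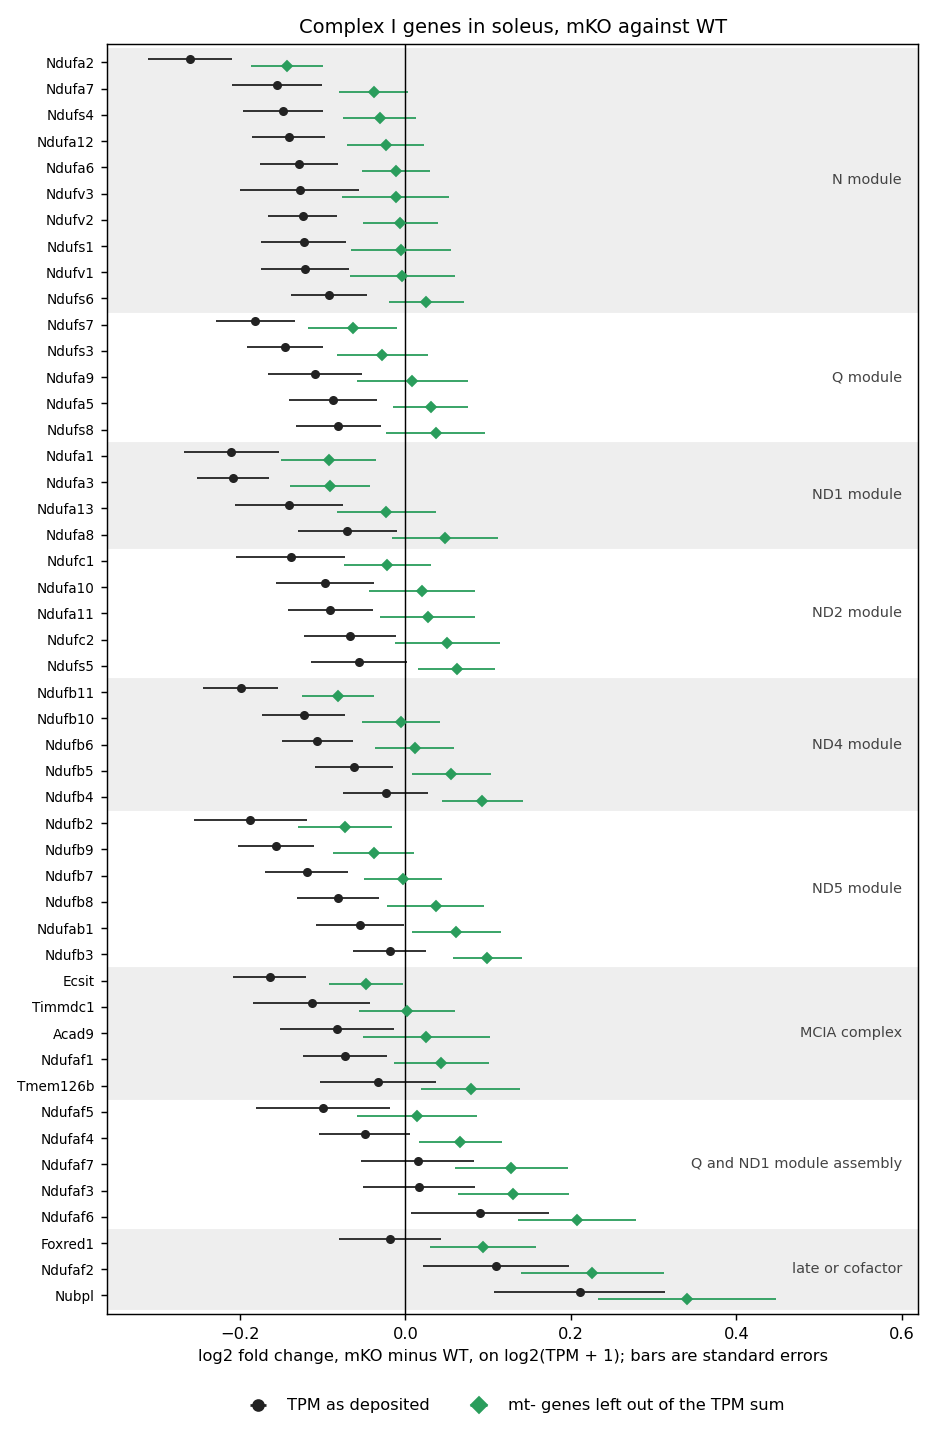
Log2 differences (mKO minus WT, on log2(TPM + 1)) of the 48 complex I genes, grouped by module or assembly role, with bars for the standard error. Black circles are TPM as deposited and green diamonds are TPM with mt- genes left out. Black circles of all 35 subunits lie left of 0, and the green diamonds lie on both sides of it.

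In the N module, which takes electrons from NADH, 9 of 10 subunits had all mKO libraries lower than all WT libraries, against 10.3% of all genes and 23.7% of genes in the subunits' range of levels. The summed TPM in mKO was 90.1% of that in WT. With mt- genes left out, 1 of the 10, Ndufa2, had all mKO libraries lower, and the sum was 97.8% of WT. The shares were then 2.71% of all genes and 4.95% of genes in the subunits' range of levels. Ndufv1, which carries the flavin and the NADH site, had 365, 344 and 361 TPM in mKO and 369, 389.8 and 405 TPM in WT (log2 difference -0.12, SE 0.05, adjusted p = 0.471). The groups were next to each other, with 365 TPM in the highest mKO library and 369 TPM in the lowest WT library. Ndufv2, an iron-sulfur core subunit, had 319, 318 and 313 TPM in mKO and 342, 346 and 348 TPM in WT (-0.12, SE 0.04, adjusted p = 0.333). Ndufs1, the core subunit that carries several of the clusters, had 139, 135 and 139.9 TPM in mKO and 144, 149 and 158 TPM in WT (-0.12, SE 0.05, adjusted p = 0.452). All 3 were lower in each mKO library as deposited. The TPM sum outside mt- genes had a log2 difference of -0.12, and the median of all genes tested was -0.01. In the scaling without mt- genes the log2 difference was -0.00 for Ndufv1, -0.01 for Ndufv2 and -0.01 for Ndufs1, with overlapping groups.

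Ndufa2, an accessory subunit with a thioredoxin-like fold, had the most negative log2 difference of all members. It stood at 341, 351 and 338 TPM in mKO and at 404, 434 and 398 TPM in WT, a log2 difference of -0.26 (SE 0.05, adjusted p = 0.0917). The 3 mKO libraries lay close together and well below the lowest WT library. The groups still did not overlap with mt- genes left out (668, 660.2 and 653 TPM in mKO, 715, 749.6 and 724 TPM in WT), and the log2 difference was -0.14 (adjusted p = 0.175). Ndufs4, an accessory subunit whose loss in humans causes Leigh syndrome, had 124, 128 and 122 TPM in mKO and 134, 143 and 139 TPM in WT (-0.15, SE 0.05, adjusted p = 0.312). Ndufa7, another accessory subunit, had 78.9, 84.4 and 78.9 TPM in mKO and 89.6, 93.8 and 86.5 TPM in WT (-0.15, SE 0.05, adjusted p = 0.353). Both were lower in every mKO library as deposited and overlapped once mt- genes were left out. The other N module subunits, Ndufa6, Ndufa12, Ndufs6 and Ndufv3, ranged from -0.14 for Ndufa12 to -0.09 for Ndufs6, and Ndufv3 was the one whose groups overlapped.

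In the Q module, where ubiquinone is reduced, the mKO sum was 91.9% of the WT sum, and 2 of 5 subunits had all mKO libraries lower, against 10.3% of all genes. Without mt- genes 0 of 5 did, and the sum was 99.8% of WT. Ndufs7, which holds the last iron-sulfur cluster before ubiquinone, had 215, 211 and 226 TPM in mKO and 241, 249 and 249.6 TPM in WT (-0.18, SE 0.05, adjusted p = 0.21). Ndufs3, a core subunit without a cluster, had 207, 198 and 198 TPM in mKO and 221, 219 and 228 TPM in WT (-0.15, SE 0.05, adjusted p = 0.296). Both were lower in each mKO library as deposited, and the groups overlapped once mt- genes were left out, at -0.06 for Ndufs7 and -0.03 for Ndufs3. Ndufs8, a ferredoxin-like core subunit, had 218, 215 and 217 TPM in mKO and 218, 229 and 242 TPM in WT (-0.08, SE 0.05, adjusted p = 0.643). WT replicate 1 stood level with the mKO libraries, so the groups overlapped. The accessory subunits Ndufa5 and Ndufa9 had log2 differences of -0.09 and -0.11 and overlapped too.

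The ND1 module, the part of the membrane arm next to the Q module, had an mKO sum of 90.4% of the WT sum, or 98.1% with mt- genes left out, where the groups overlapped in all 4 of its subunits. Ndufa1, a small X-linked membrane subunit, had 325, 319.5 and 290.4 TPM in mKO and 371, 361 and 349 TPM in WT (-0.21, SE 0.06, adjusted p = 0.224). Ndufa3, also a small membrane subunit, whose upstream sequence is printed above, had 192, 189 and 192 TPM in mKO and 226, 217 and 219.6 TPM in WT (-0.21, SE 0.04, adjusted p = 0.117). The mKO libraries of Ndufa3 lay close to each other, while those of Ndufa1 spread more, with mKO replicate 3 the lowest. Ndufa8 (-0.07) and Ndufa13 (-0.14), known also as GRIM-19, overlapped between the groups. In the ND2 module the mKO sum was 94.4% of the WT sum, or 102% with mt- genes left out. Its 5 subunits ranged from -0.14 for Ndufc1, the one without overlap, to -0.06 for Ndufs5.

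The distal membrane arm had the subunits with the smallest differences as well as some of the larger ones. The mKO sum was 90.9% of the WT sum in the ND4 module and 92.8% in the ND5 module. Leaving out mt- genes gave 98.7% in the ND4 module and 101% in the ND5 module. Ndufb11, an X-linked membrane subunit, had 405, 423 and 427 TPM in mKO and 476, 489 and 477 TPM in WT (-0.20, SE 0.05, adjusted p = 0.151). Its groups stayed apart with mt- genes left out, at 793, 797 and 826 TPM in mKO and 843, 845 and 868 TPM in WT (-0.08, adjusted p = 0.344). Ndufb9, a LYR-motif subunit and the most abundant of the 48 members, had 779, 769.6 and 743 TPM in mKO and 838, 874 and 842 TPM in WT (-0.16, SE 0.05, adjusted p = 0.26). Ndufb2, the least abundant subunit, had 32.9, 32.9 and 31.3 TPM in mKO and 36.5, 40.3 and 34.3 TPM in WT (-0.19, SE 0.07, adjusted p = 0.377). In these 3 subunits every mKO library lay below every WT library as deposited, and in Ndufb9 and Ndufb2 the groups overlapped once mt- genes were left out.

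At the other end, Ndufb3 averaged 398 ± 6.34 TPM in mKO and 404 ± 8.97 TPM in WT, and Ndufb4 averaged 53.1 ± 1.01 TPM in mKO and 54.0 ± 2.08 TPM in WT (SD, n = 3 each). Their log2 differences were -0.02 each with overlapping groups, the nearest to 0 among the subunits. Once mt- genes were left out they were 0.10 for Ndufb3 and 0.09 for Ndufb4, and both had all mKO libraries above all WT libraries. Ndufb4b, a close copy of Ndufb4 that was not on the list, had 289, 293 and 278 TPM in mKO and 325, 337 and 316 TPM in WT (-0.18, adjusted p = 0.21). Reads may have been divided between these copies, so the values of each are uncertain. The remaining subunits of these modules, Ndufb5, Ndufb6, Ndufb7, Ndufb8, Ndufb10 and Ndufab1, the mitochondrial acyl carrier protein, ranged from -0.12 for Ndufb10 to -0.05 for Ndufab1.

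**Figure D2:**
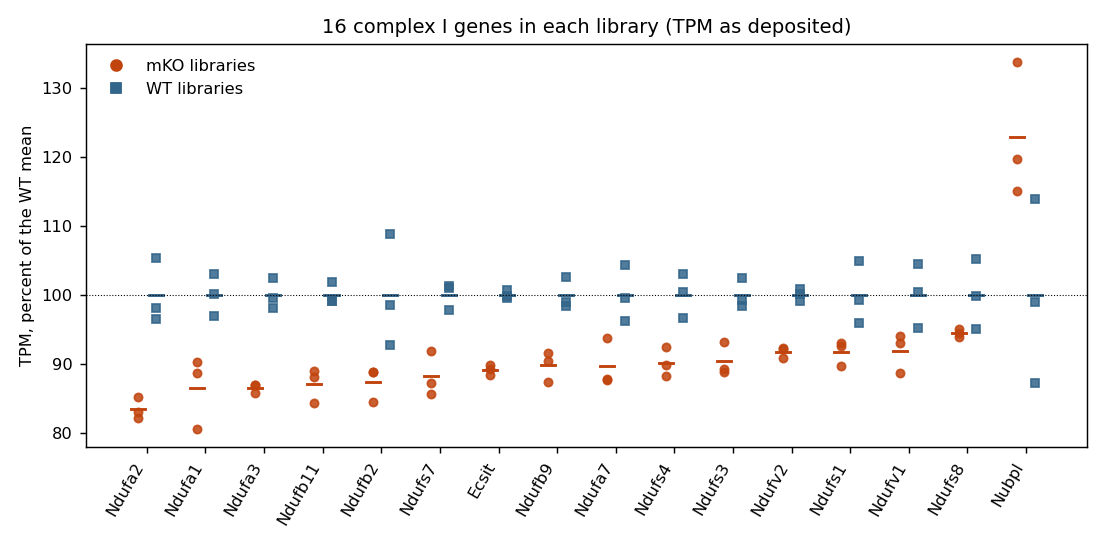
TPM of 16 complex I genes in each library, as a percentage of the WT mean of the gene, with mKO libraries as circles, WT libraries as squares and short bars for the group means. In 14 of the 16 genes all mKO circles lie below all WT squares, Ndufs8 overlaps, and Nubpl lies above.

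As deposited, the assembly factors were divided in direction. Of the 13, 8 had a log2 difference below 0, with a median of -0.03. Among the 9347 genes in their range of levels (2.36 to 76.9 TPM), 55.4% were below 0, with a median of -0.01. In 1 of the 13, Ecsit, all mKO libraries were lower, against 10.3% of all genes, and in 1, Nubpl, all were higher, against 5.67%. Their summed TPM was 301, 310.0 and 298 in mKO and 314, 324 and 318 in WT. The mKO sum was 95.0% of the WT sum, and 103% with mt- genes left out. In that scaling 1 of 13 was below 0 with a median of 0.08, and 6 had all mKO libraries higher, against the same 23.9% of all genes. Among 9330 genes in their range of levels, 19.2% were below 0 with a median of 0.10, and 27.2% had mKO libraries all higher.

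The 5 factors that work on the membrane arm in or beside the mitochondrial complex I intermediate assembly (MCIA) complex all had values below 0. As deposited 55.1% of all genes were below 0. Leaving out mt- genes left 1 of the 5, Ecsit, below 0, against 22.8% of all genes. Ecsit, a subunit of MCIA that was first described as a signalling adaptor, had 73.1, 71.9 and 72.5 TPM in mKO and 80.9, 81.9 and 81.3 TPM in WT (-0.16, SE 0.04, adjusted p = 0.218). The libraries of each group lay close together and the groups were well apart, although the adjusted p missed the threshold. Its log2 difference was -0.05 with mt- genes left out and the groups overlapped. Ndufaf1 (-0.07), Acad9 (-0.08), Tmem126b (-0.03) and Timmdc1 (-0.11) overlapped between groups. The summed TPM of the 5 was 186 ± 1.03 in mKO and 202 ± 3.67 in WT (SD, n = 3 each), 92.2% of WT, or 100.1% of WT with mt- genes left out.

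The 5 factors of Q and ND1 module assembly were near level as deposited, with an mKO sum of 99.0% of the WT sum. They are Ndufaf3 and Ndufaf4, which bind the early Q module, Ndufaf5 and Ndufaf7, which modify core subunits, and Ndufaf6. Their log2 differences ran from -0.10 for Ndufaf5 to 0.09 for Ndufaf6, and the groups overlapped in all 5. Leaving out mt- genes gave an mKO sum of 107% of the WT sum. Ndufaf3, Ndufaf4, Ndufaf6 and Ndufaf7 then had all mKO libraries above all WT libraries, against 23.9% of all genes. Among genes in the factors' range of levels the share was 27.2%. Ndufaf6 then had 38.8, 43.9 and 39.0 TPM in mKO and 32.9, 37.2 and 35.0 TPM in WT (0.21, adjusted p = 0.202).

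The late and cofactor-loading factors included the most positive values. The mKO sum of these 3 genes was 104% of the WT sum, or 113% with mt- genes left out. Nubpl, which delivers iron-sulfur clusters to complex I, had 2.43, 2.83 and 2.53 TPM in mKO and 2.41, 2.09 and 1.84 TPM in WT (0.21, SE 0.10, adjusted p = 0.539). Every mKO library was higher, but by a narrow margin, since mKO replicate 1 and WT replicate 1 had almost the same level. These values rest on 247, 305 and 251 reads in mKO and on 276, 217 and 199 reads in WT. The log2(TPM + 1) scale understates changes at this level, and the mKO mean was 123% of the WT mean. With mt- genes left out the log2 difference was 0.34 (adjusted p = 0.186). Ndufaf2, a relative of Ndufa12 that joins the assembly late, averaged 6.66 ± 0.142 TPM in mKO and 6.12 ± 0.706 TPM in WT (0.11, adjusted p = 0.73), with overlapping groups. Foxred1, an oxidoreductase-like factor, was at -0.02.

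**Figure D3:**
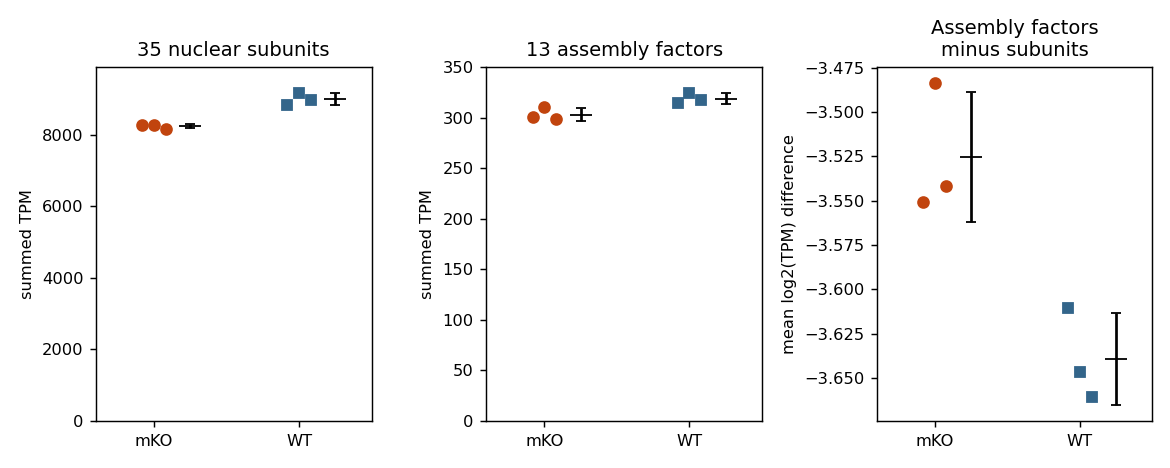
Summed TPM of the 35 subunits (left), summed TPM of the 13 assembly factors (middle) and the mean log2(TPM) of the assembly factors minus that of the subunits (right) in each library, with the mean and SD of each group. The sums of mKO libraries lie below those of WT libraries, and the difference in the right panel lies between -3.55 and -3.48 in mKO and between -3.66 and -3.61 in WT.

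A ratio within a library does not move with the TPM sum, so the assembly factors were set against the subunits of the same library. The mean log2(TPM) of the 13 factors minus that of the 35 subunits was -3.55, -3.48 and -3.54 in mKO and -3.61, -3.65 and -3.66 in WT. The factors were higher relative to the subunits in every mKO library, by 0.11 on average. Without Nubpl the difference was 0.09. As a ratio of sums, which weights abundant genes, the factors came to 3.63, 3.75 and 3.65% of the subunit sum in mKO and to 3.56, 3.53 and 3.53% in WT, a log2 difference of 0.05. No test was made of these scores, since the members were chosen with earlier results known. Across the 13 factors, genes at lower levels had the higher log2 differences (Spearman rho = -0.71, across genes of the same 6 libraries), and over all genes tested rho was -0.20. Among the 35 subunits rho was -0.08. As deposited, all genes in the factors' range of levels had a median log2 difference of -0.01, and those in the subunits' range had -0.06. Against exon length rho was 0.18 for the factors and 0.07 for the subunits.

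Set against the mean of all 48 members in the same library, 8 members were lower in every mKO library than in any WT library, against 3.54% of all genes tested when set against the same mean. Higher in every mKO library were 5 members, against 17.6% of all genes. The average of the 48 members is fixed by this centring, while that of all genes is not. The shares of all genes therefore cannot show whether the counts of members are high or low. The lower ones were Ndufa2 (log2 difference of the ratio -0.17), Ndufa1 (-0.12), Ndufa3 (-0.12), Ndufb11 (-0.11), Ecsit (-0.07), Ndufb9 (-0.07), Ndufs4 (-0.06) and Ndufa6 (-0.04). The higher ones were Nubpl (0.39), Ndufaf2 (0.22), Ndufaf6 (0.19), Ndufaf7 (0.11) and Ndufb3 (0.07). For Ndufa6 the groups almost touched, at 0.6260 in the highest mKO library and 0.6264 in the lowest WT library.

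The subunits that the mitochondrial genome encodes went the other way in value. None of the 7 mt-Nd genes passed the test, against 0.52% of all genes. A log2 difference above 0 was seen in 6 of them, while 55.1% of all genes were below 0. mt-Nd1, which sits at the junction of the arms, had 39591, 37220.5 and 38434 TPM in mKO and 32016, 30866 and 33194 TPM in WT (0.26, SE 0.07, adjusted p = 0.18). mt-Nd2, a proton-pumping subunit, had 37839, 36180.1 and 36841 TPM in mKO and 29795, 28269 and 31359.9 TPM in WT (0.31, SE 0.07, adjusted p = 0.131). Both were higher in each mKO library, as was mt-Nd3 by a small margin (0.06), against 5.67% of all genes. mt-Nd4, mt-Nd4l, mt-Nd5 and mt-Nd6 overlapped between the groups, and mt-Nd6, the light-strand gene, was at -0.11. Together they made up 15.6 ± 0.418% of TPM in mKO and 13.8 ± 0.640% in WT (SD, n = 3 each). For each TPM of nuclear subunits there were 19.3, 18.3 and 19.1 TPM of mt-Nd genes in mKO and 15.3, 14.5 and 16.2 in WT. mt-Nd2 over mt-Nd5, both heavy-strand genes, was 1.93, 1.93 and 1.92 in mKO and 1.71, 1.54 and 1.55 in WT, without overlap. Libraries were poly(A)-selected, and the levels of these transcripts can also depend on their tails.

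**Figure D4:**
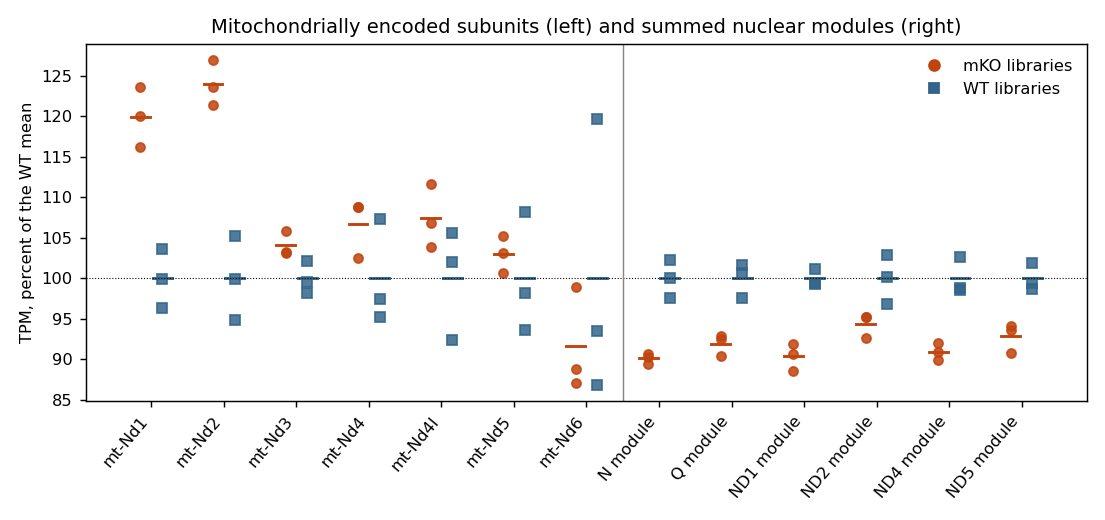
TPM of the 7 mitochondrially encoded complex I subunits (left) and summed TPM of the 6 nuclear modules (right) in each library, as a percentage of the WT mean, with mKO libraries as circles, WT libraries as squares and short bars for group means. mt-Nd1 and mt-Nd2 lie above the WT libraries in all 3 mKO libraries, and each nuclear module lies below the WT libraries in TPM as deposited.

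Nuclear genes of the other respiratory complexes and of complex V, the ATP synthase, also lay below 0 in median. In each complex 0 genes were called, against 0.52% of all genes. The median log2 difference was -0.09 over 8 genes of complex II and -0.13 over 9 of complex III. It was -0.12 over 13 of complex IV and -0.12 over 14 of complex V. These medians were 0.03, -0.01, 0.00 and -0.00 with mt- genes left out. Of 9 further genes tied to complex I, 0 were called, against 0.52% of all genes. Below 0 were 4 of the 9, against 55.1% of all genes, and the median was 0.01. With mt- genes left out 2 were below 0, against 22.8% of all genes, and the median was 0.12. Among the 9, Ndufa4, now counted as a subunit of complex IV, had a log2 difference of -0.12 and its relative Ndufa4l2 of -0.21 (adjusted p = 0.237). Both had all mKO libraries lower as deposited, against 10.3% of all genes. With mt- genes left out Ndufa4 was at 0.0007 and Ndufa4l2 at -0.10, both with overlapping groups. The assembly-related genes Ndufaf8, Tmem70, Dmac1, Dmac2 and Lyrm2 lay between 0.01 and 0.04 as deposited. Tmem186, an MCIA-associated gene, was at -0.15 and Aifm1 at -0.08, both with overlapping groups. With mt- genes left out Ndufaf8, Tmem70, Dmac1, Dmac2 and Lyrm2 lay between 0.12 and 0.15. Tmem70 and Dmac2 then had all mKO libraries higher, against 23.9% of all genes. Tmem186 was then at -0.04 and Aifm1 at 0.04, both with overlapping groups.

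Exonic bases are shared between 19 of the 48 members and another annotated gene (GENCODE M21), for 12 of them a gene at 1 TPM or more. The counting may or may not have used strand (not given in the sources used here), and reads of such genes may be mixed. Ndufb6 shares 39.0% of its exonic bases with Smim27, Ndufb11 shares 12.9% with Rbm10 and Ndufa2 shares 11.5% with Tmco6, each on the opposite strand. Mean TPM was 5.58 in mKO and 6.97 in WT for Smim27, 11.4 in mKO and 11.9 in WT for Rbm10, and 2.09 in mKO and 2.49 in WT for Tmco6, each below the level of its member. Impdh2, which shares 2.64% of the exonic bases of Ndufaf3 on the opposite strand, was at 28.1 TPM in mKO and 29.6 TPM in WT, above Ndufaf3 itself at 13.1 TPM in mKO and 12.9 TPM in WT. Eef1b2, which shares 0.111% of those of Ndufs1, was at 100.2 TPM in mKO and 105 TPM in WT. Gm43079, on the same strand as Acad9 and sharing 6.82% of its exonic bases, was at 2.85 TPM in mKO and 4.37 TPM in WT. Mrpl47, which shares 12.3% of the exonic bases of Ndufb5 on the opposite strand, was at 13.2 TPM in mKO and 14.1 TPM in WT. Gm49356, on the same strand as Ndufb9 and sharing 19.5% of its exonic bases, was at 0.656 TPM in mKO and 0.625 TPM in WT.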

How the data were processed

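RNA-seq of mouse soleus was analysed in 3 mKO and 3 WT libraries, grouped by the labels. The authors deposited gene-level TPM per library, with the genome build GRCm39 per the submitters' processing notes, and the labels' protocols give directional poly(A) libraries. Not given in the sources used here are the aligner, the counter and its use of strand. Log2(TPM + 1) was fitted with limma-trend (limma 3.58.1, R 4.3.3), with genotype as the only term, for genes reaching 1 TPM in at least 3 libraries. P-values were adjusted by Benjamini-Hochberg over all genes tested, with a threshold of 0.05. The fit was repeated with mt- genes left out. TPM times GENCODE M21 exon length gave whole reads, within 0.05 reads, for 93.12% of 22734 genes. These reads served for depth and limma-voom, and 58.55% were even, so a pair may count as 2 reads in part.

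The members and lists were chosen with earlier results of these data known. Values per library are given for the 12 members of largest absolute log2 difference, those without overlap in both scalings and the core subunits of the N and Q modules. Ndufb3, Ndufb4, Ndufb4b, Ndufaf2, Ndufaf6 and further examples were added after their values were seen. Libraries of a group differed beyond sampling noise. The fit was checked on simulated data. Alternatives were other filters, pseudocounts (0.1 and 0.5) and scalings, a replicate block and each library left out. Promoters are RefSeq sequences of GRCm38.p6, an older build than that of the files, with coordinates of that build only.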

Additional observations from a re-analysis of the deposited data

How the results depend on the processing

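No alternative called a member. Over 15 settings the lowest adjusted p was 0.092 (limma), and 684 of 720 member values kept their sign. The number of all genes called was 64 as fitted, 41 with mt- genes left out (32 of the 64 kept), 6 without the filter, 41 with median-of-ratios and 39 with upper-quartile scaling, and 21 with the replicate block. It was 4 (without WT replicate 2) to 94 (without mKO replicate 3) with a library left out. With mt- genes left out it was 23 with the replicate block and 76 with limma-voom. It was then 7, 13 and 102 without mKO replicates 1, 2 and 3, and 16, 3 and 8 without WT replicates 1, 2 and 3. Same-numbered libraries correlated at 0.09, 0.05 and 0.13 in their deviations from the group means, and each correlated best with its own number, a hint from the data and not from the design. The subunit median of -0.12 was -0.0049 with mt- genes left out, -0.071 with limma-voom and -0.14 to -0.100 with a library left out. The assembly factor median of -0.03 was 0.079 with mt- genes left out and 0.018 with limma-voom, and -0.052 to -0.0058 with a library left out. It was 0.059 to 0.10 with both a library and mt- genes left out. The summed subunits were 99.4% and the summed assembly factors 103% of WT with mt- genes left out, against 91.6% and 95.0%. The factors relative to the subunits were 0.11, or 0.053 as a ratio of sums. Leaving out mt- genes raises all other values by construction, and 22 members then had values above 0 in place of below: Ndufs6 (0.025), Ndufs8 (0.037), Ndufa5 (0.030), Ndufa9 (0.0086), Ndufa8 (0.048), Ndufa10 (0.021), Ndufa11 (0.027), Ndufc2 (0.051), Ndufs5 (0.062), Ndufb4 (0.093), Ndufb5 (0.056), Ndufb6 (0.011), Ndufb3 (0.099), Ndufb8 (0.037), Ndufab1 (0.062), Ndufaf1 (0.044), Ndufaf4 (0.066), Ndufaf5 (0.014), Timmdc1 (0.0019), Tmem126b (0.079), Acad9 (0.025) and Foxred1 (0.094). Upper-quartile scaling put Ndufb3 at 0.0012 and Foxred1 at 0.00013. Limma-voom put Ndufb4 at 0.028, Ndufb3 at 0.033, Ndufaf4 at 0.0021, Tmem126b at 0.018 and Foxred1 at 0.033. With a library left out, Ndufb4 ranged from -0.042 (without WT replicate 1) to 0.0074 (without WT replicate 2), Tmem126b ranged from -0.072 (without mKO replicate 2) to 0.0085 (without WT replicate 2), Foxred1 ranged from -0.044 (without WT replicate 1) to 0.013 (without WT replicate 3), Ndufaf3 ranged from -0.019 (without WT replicate 2) to 0.051 (without mKO replicate 1) and Ndufaf7 ranged from -0.032 (without WT replicate 1) to 0.041 (without WT replicate 2). Among members at log2 differences this near 0, the cause of a change of sign was not tested. Limma-voom, the libraries and the block with mt- genes left out and the ratio of sums were added after seeing the data.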
